A study of Rattus norvegicus with 50 samples.

Results

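The constitutive androstane receptor CAR (Nr1i3) and the pregnane X receptor PXR (Nr1i2) were followed in rat liver together with 7 of their known targets that are not cytochromes P450: Ces2c, Ephx1, Ugt2b1, Aldh1a1, Akr7a3, Por and Gadd45b. The 9 genes were taken by symbol from the annotation of the array, using probe sets with a single symbol, and where a gene had more than 1 probe set the one with the highest mean over all 50 samples was used. Only Por had 2. All 9 were found, among 14217 genes measured in the same way.

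CAR and PXR are nuclear receptors of hepatocytes that pair with a retinoid X receptor and switch on genes for the uptake, oxidation, conjugation and export of drugs, steroids and bile acids. PXR is opened by ligands that enter its pocket, whereas CAR is held in the cytoplasm and moves to the nucleus on activation, which can occur without a ligand. Their best known targets are P450 enzymes of the Cyp2b and Cyp3a families, but hydrolases, transferases, dehydrogenases and the electron donor of the P450s are induced alongside.

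The animals were female Brown Norway rats (Bn/Crl, RT1n haplotype) of 9 to 11 weeks, and whole liver was measured with 1 array per rat. There were 17 groups of 3 rats, except galactosamine at 48 h, which had 2. Galactosamine, an amino sugar that depletes uridine nucleotides in hepatocytes and injures them, was injected once into the abdomen at 750 mg/kg, and livers were taken after 3 h, 24 h, 48 h and 8 d. Nevirapine, an antiretroviral with known liver toxicity, was given by mouth. Nevirapine rats at 3 h, 24 h and 48 h are labelled with 150 mg/kg only, in 1, 2 and 3 oral doses. Those at 15 d and the combination rats had 150 mg/kg for 1 d, 100 mg/kg for 2 d and, after a day without drug, 75 mg/kg. Livers of nevirapine rats were taken 3 h, 24 h, 48 h and 15 d after the first dose. Combination rats had 7 d of nevirapine, then the same injection, then more nevirapine for up to 8 d, and their times run from the injection, so that the last group had 15 d of nevirapine. Vehicle rats had sham doses and were taken at 3 h, 24 h, 48 h, 8 d and 15 d. Most livers came from rats dosed by mouth 2 h earlier, and those of the 3 h groups from rats dosed 5 h earlier, but nevirapine rats at 3 h were taken 3 h after their only oral dose and 1 h after a sham injection. These rats and their vehicle rats therefore differ in the time since the oral dose as well as in treatment. The time since the sham injection differs too, going by the time labels. By the labels, vehicle rats at 15 d were also 15 d from their sham injection, and nevirapine rats at 15 d were 8 d from theirs. The series asks what happens over the 8 d in which fibrosis is described after the combination and not after either drug alone.

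Values are log2 signals, so a difference of 1 is a doubling of signal, and errors of differences are standard errors of a limma fit over all 50 arrays. A difference was called when its adjusted p (Benjamini-Hochberg, all 14217 genes) was under 0.05. These p-values set a difference against the spread between rats of a group, pooled over all 17 groups and moderated across genes. That spread need not be the one of the compared rats, and the number of arrays limits the precision. Array medians lay between 4.954 and 5.093, and the 3′ probe set of GAPDH exceeded its 5′ probe set by 0.0089 to 0.86, a gap that widens as RNA breaks down. The widest gap was that of rat40 of nevirapine at 48 h, whose group also held rat41 at 0.014 and rat42 at 0.098. Some compared groups did not overlap in this gap. At 48 h it ran from 0.48 to 0.74 in vehicle, 0.13 to 0.14 after galactosamine and 0.29 to 0.35 in the combination. At 15 d it ran from 0.035 to 0.12 in vehicle and from 0.20 to 0.21 in nevirapine. At 24 h each treated group overlapped with vehicle. The mean correlation of a rat with its own group was lowest for rat63 of the combination at 3 h, at 0.979, and reached 0.997. No pair of arrays correlated above 0.997, and the labels do not say whether rats shared a cage or a day. The lowest value of any of the 9 genes was 4.41, against 4.37 for the highest mean of 27 bacterial control probe sets. The labelled tissue was checked on hepatocyte markers, of which 12 of 15 were measured: the mean over all arrays was 13.5 for Ttr and 12.8 for Apoa1. Markers of other liver cells were present at means of 4.48 to 9.85 for 11 macrophage genes (Clec4f the highest) and 6.28 to 9.88 for 7 endothelial genes (Lyve1 the highest). The means ran from 2.71 to 4.27 for 4 neutrophil genes, from 3.70 to 5.35 for 8 T and NK cell genes and from 3.22 (Krt7) to 7.23 (Epcam) for 4 bile duct genes. In whole liver, fewer cells of a type and less RNA per cell cannot be told apart.

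CAR and PXR bind direct or inverted repeats of the hexamers AGTTCA and AGGTCA, and the letters upstream of the 9 genes were read from RefSeq's promoter windows on GRCr8. All 9 genes matched, with 10 windows in all, because Ephx1 has 2 annotated starts. Each window is the 250 bases before a start, printed 5′ to 3′ on the strand of the gene. Capitals mark the hexamers AGTTCA and AGGTCA on either strand, so that TGAACT and TGACCT are the same letters on the other strand. Ces2c (chr1:270376951-270377200, + strand) and Ugt2b1 (chr14:21378632-21378881, + strand) are shown because they were the 2 genes of the 9 that were called higher in all 8 comparisons of nevirapine or the combination with vehicle. Ephx1 (chr13:95263118-95263367, - strand) is shown because it also rose after galactosamine alone.
Ces2c promoter window: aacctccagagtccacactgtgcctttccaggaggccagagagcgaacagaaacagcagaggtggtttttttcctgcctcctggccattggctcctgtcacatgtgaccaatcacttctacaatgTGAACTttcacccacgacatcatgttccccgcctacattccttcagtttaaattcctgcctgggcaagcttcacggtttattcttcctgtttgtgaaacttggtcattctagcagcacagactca
Ugt2b1 promoter window: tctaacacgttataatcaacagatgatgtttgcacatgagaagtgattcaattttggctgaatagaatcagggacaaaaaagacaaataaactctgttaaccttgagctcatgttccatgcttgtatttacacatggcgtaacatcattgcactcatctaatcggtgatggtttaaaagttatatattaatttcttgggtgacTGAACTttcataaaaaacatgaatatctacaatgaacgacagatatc
Ephx1 promoter window: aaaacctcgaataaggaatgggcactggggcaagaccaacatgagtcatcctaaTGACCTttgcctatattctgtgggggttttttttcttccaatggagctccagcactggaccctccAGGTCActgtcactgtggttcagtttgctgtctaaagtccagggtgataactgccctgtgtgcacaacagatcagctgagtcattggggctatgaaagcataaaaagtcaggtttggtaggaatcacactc

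The AGTTCA hexamer was found in 3 of the 9 genes (Nr1i2, Ces2c and Ugt2b1) and in 12.2% of all 33469 windows of the same length. The AGGTCA hexamer was found in Ephx1, where it occurs on both strands, and in Por, and in 14.1% of all windows. In Ces2c and Ugt2b1 the hexamer sits on the opposite strand, 125 and 47 bases before the start, and both windows continue it to AAAGTTCA, which 1.12% of all windows hold. The longest stretch that these windows share on the same strand is tgaactttca, found in 32 windows, or 0.096%. On opposite strands they share a stretch of the same length without either hexamer, aatcacttct, found in 34 windows, or 0.102%. The longer motif and the shared stretches were chosen after the sequences had been seen. A direct repeat of either hexamer with 4 bases between was in none of the 10 windows and in 0.015% of all. Direct repeats with other spacings and repeats in other orientations were not searched for. The antioxidant element TGACNNNGC was in Ephx1 (10.1% of all windows), and GCGTG, the core of the dioxin response element, in Akr7a3, Por and Gadd45b (25.9%). The AGGTCA and TGACNNNGC letters overlap in none of these matches. The second Ephx1 window (chr13:95275853-95276102, - strand) and the windows of Nr1i3 and Aldh1a1 held none of these letters. A match describes the letters of this window and says nothing of binding.

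Set against vehicle, between 4 and 7 of the 7 target genes were called higher at each time of nevirapine and of the combination, and neither receptor gene was called higher in any of the 12 comparisons. After nevirapine alone 4 of the 9 genes were higher at 3 h, 7 at 24 h, 7 at 48 h and 5 at 15 d, and the shares of all genes called higher were 7.59%, 4.55%, 11% and 5.13%. The shares called lower were 7.48%, 6.63%, 6.44% and 8.79%, and of the 9 genes only Nr1i2 was lower, at 48 h and 15 d. After the combination 5 genes were higher at 3 h, 5 at 24 h, 7 at 48 h and 7 at 8 d, against 15.2%, 20.7%, 10.2% and 13.1% of all genes. Nr1i2 was lower at 3 h, 24 h and 48 h of the combination and no other of the 9 genes was, while 17.4%, 16%, 5.77% and 11.7% of all genes were lower. Galactosamine alone gave another picture. It called none of the 9 at 3 h (14.9% higher and 18% lower over all genes; limma, 1 of the 9 at an unadjusted p under 0.05). At 24 h it called 1 higher and 5 lower (30.2% and 28.5%), and at 48 h 2 higher and 1 lower (24.9% and 14.5%). At 8 d it called none of the 9, also by unadjusted p, and almost no gene at all (0.00703% higher and 0.0281% lower). The median difference of the 9 genes was 1.36 at 24 h of nevirapine, 1.32 at 24 h of the combination and -1.46 at 24 h of galactosamine, beside medians of all genes of -0.0066, -0.011 and -0.068.

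**Figure D1:**
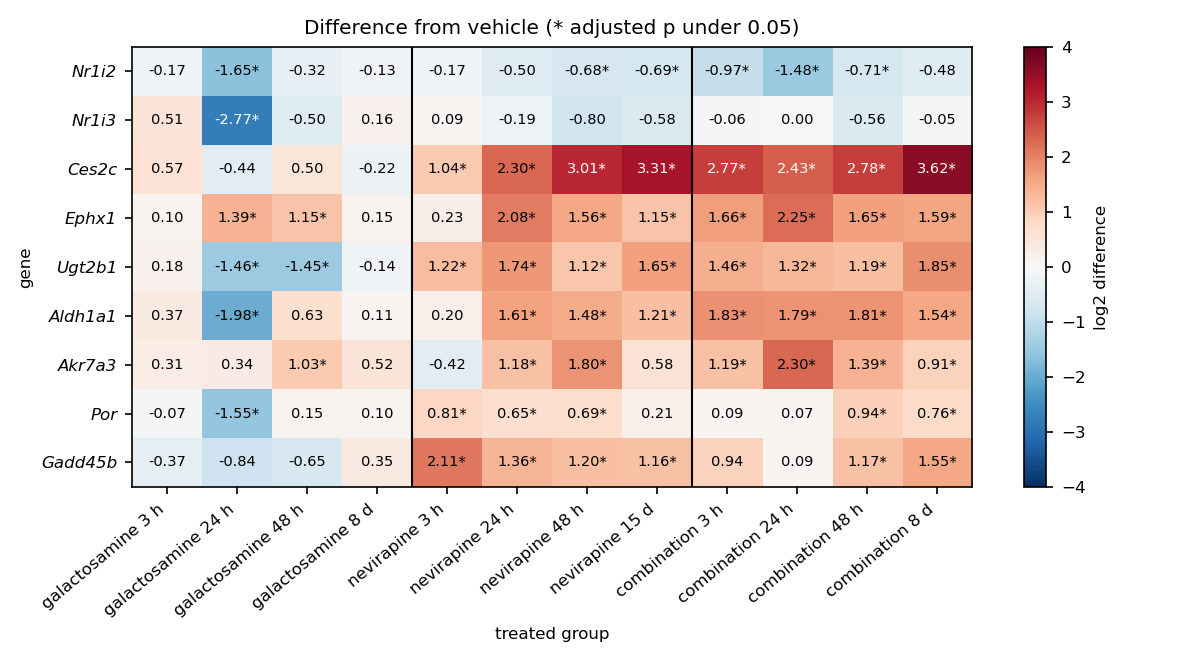
Log2 difference from vehicle for the 9 genes (rows) in the 12 treated groups (columns), each against the vehicle group of its time, and the combination at 8 d against vehicle at 15 d. Red is higher and blue lower, an asterisk marks an adjusted p under 0.05, and the columns run from -2.77 for Nr1i3 at 24 h of galactosamine to 3.62 for Ces2c at 8 d of the combination.

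Leaving out single rats moved 4 of these counts by more than 1.5 times. Without rat1 or rat18, 1 gene (Ces2c) and not 0 was called at 3 h of galactosamine. Without rat37, 4 genes and not 7 were called at 24 h of nevirapine. Without vehicle rat12, 5 and not 8 were called at 48 h, and without vehicle rat15, 3 and not 6 at 15 d. The genes concerned are named with their values in the paragraphs on each gene. At 48 h of galactosamine, with 2 rats, 5 genes and not 3 were called when only the 2 groups were fitted, when arrays were weighted, or when all 15 vehicle rats made up 1 control. The added genes were Ces2c and Aldh1a1 in each case.

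Among the receptors, Nr1i3 (CAR) had its lowest values at 24 h of galactosamine. The rats there read 5.09, 4.41 and 5.83, against 7.83, 7.35 and 8.45 in vehicle rats of the same time. The groups lie wide apart, and the 4.41 of rat23 was close to the brightest bacterial control mean. Nr1i3 fell by 2.77 ± 0.31 (limma, adjusted p = 7.4e-10; n = 3 and 3). The combination rats at 24 h, which had the same injection, read 7.55, 7.83 and 8.24 and lay inside the range of the vehicle rats, with a difference of -0.0030 ± 0.31 and a 95% interval of -0.64 to 0.63. At 48 h of galactosamine the 2 rats read 7.37 and 8.37, against 8.16 to 8.53 in vehicle, a difference of -0.50 ± 0.35 that was not called (adjusted p = 0.26). The change of the galactosamine effect from 24 h to 48 h was itself called for Nr1i3, at 2.27 ± 0.47 (limma, adjusted p = 1.7e-04). At 8 d the galactosamine rats read 8.26, 8.33 and 9.07, the last of which was the highest Nr1i3 value of the series.

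Under nevirapine alone, Nr1i3 differed from vehicle by 0.09 ± 0.31 at 3 h, -0.19 ± 0.31 at 24 h, -0.80 ± 0.31 at 48 h and -0.58 ± 0.31 at 15 d, and no difference was called. The one at 48 h (limma, adjusted p = 0.070) was called after cyclic loess normalization (0.040) and without rat41 (-1.09, adjusted p = 0.030). The 15 d difference, whose rats did not overlap with vehicle, was called when only its 2 groups were fitted (0.016) or arrays were weighted (0.022). In the combination the differences were -0.06, -0.0030, -0.56 and -0.05 from 3 h to 8 d, none of them called, and the rats overlapped with vehicle at all 4 times.

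Nr1i2 (PXR) was also lowest at 24 h, and both after galactosamine and after the combination. The galactosamine rats read 8.12, 6.67 and 8.07, the combination rats 8.17, 8.20 and 7.01, and the vehicle rats 9.41, 9.16 and 9.25. In each treated group 1 rat stood more than 1 log2 unit below the other two, and neither group overlapped with vehicle. Nr1i2 fell by 1.65 ± 0.23 after galactosamine (limma, adjusted p = 8.7e-08) and by 1.48 ± 0.23 after the combination (2.4e-06). The 2 treated groups differed by 0.17 ± 0.23 (95% interval -0.30 to 0.64), which was not called, although it was without rat79 (0.56, adjusted p = 0.042). At 3 h Nr1i2 fell in the combination, with 8.01, 7.94 and 7.90 against 9.01, 8.93 and 8.80, by 0.97 ± 0.23 (adjusted p = 0.0014). At 48 h of the combination it fell by 0.71 ± 0.23 (0.031), and at 8 d the difference was -0.48 ± 0.23 (0.13), without overlap of the rats. That last difference was called in 4 other settings, such as the fit to only its groups (0.0050) and the comparison with vehicle at 8 d (0.040).

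With nevirapine alone the difference at 24 h was -0.50 ± 0.23, uncalled (limma, adjusted p = 0.18) except in the fit to its 2 groups (0.029) and with array weights (0.012). Nevirapine alone lowered Nr1i2 by 0.68 ± 0.23 at 48 h (limma, adjusted p = 0.038) and by 0.69 ± 0.23 at 15 d (0.041). The rats read 8.00, 8.45 and 8.51 at 48 h, against 9.04, 9.02 and 8.94 in vehicle, and 8.14, 7.86 and 7.85 at 15 d, against 8.70, 8.60 and 8.63. Neither treated group overlapped with its vehicle group. The 8.00 at 48 h was that of rat40, the array with the widest GAPDH gap (0.86). The calls are thin, because dropping a rat takes them past the threshold in most cases. The one at 48 h was lost without rat10, rat11, rat12, rat40 or rat41 (adjusted p 0.055 to 0.20). The one at 15 d was lost without rat13, rat14, rat15, rat44 or rat45 (0.085 to 0.13) and with the GAPDH difference as a covariate (0.062), and that of the combination at 48 h without rat10, rat11, rat12, rat70 or rat71 (0.065 to 0.17). Fitted values with 1 rat left out still lay between -0.74 and -0.52 for these lost calls. After galactosamine, the effect on Nr1i2 was less negative at 48 h than at 24 h by 1.33 ± 0.35 (adjusted p = 0.0023), with 8.50 and 8.85 in the 48 h rats.

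**Figure D2:**
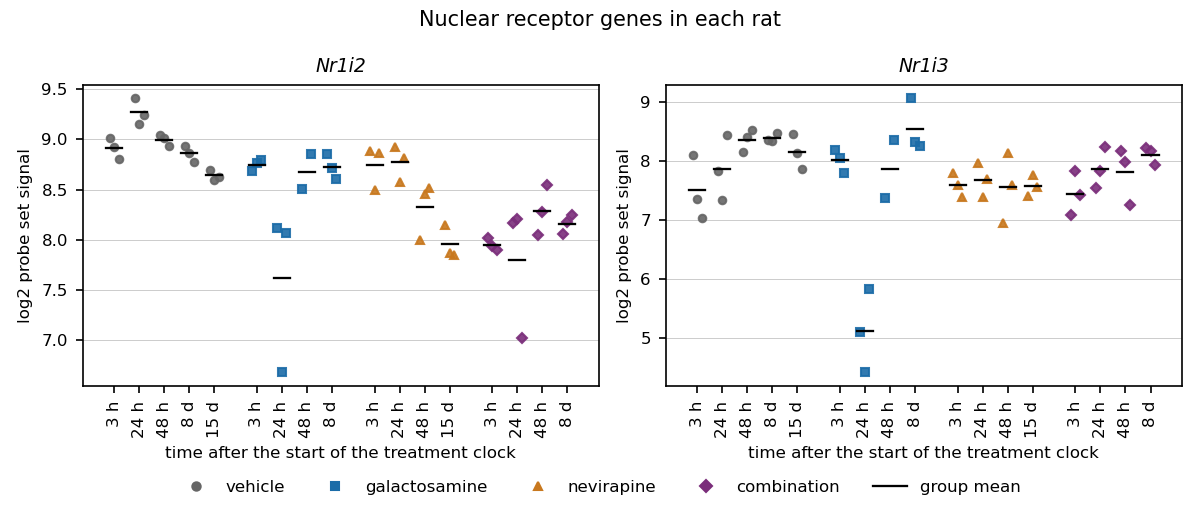
Log2 signal of Nr1i2 (left) and Nr1i3 (right) in every rat, with a bar at the mean of each group and times on the horizontal axis, by treatment. Nr1i3 at 24 h of galactosamine, from 4.41 to 5.83, lies below all other groups, while the combination at 24 h, from 7.55 to 8.24, does not; Nr1i2 is low in both.

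The 15 measured partners and coregulators of the receptors, of 17 listed, were counted beside them. At 24 h of galactosamine 4 were higher and 6 lower, with a median of -0.08. Over all genes 30.2% were higher and 28.5% lower there, with a median of -0.068. Nr0b2 (SHP, a repressor partner without a DNA-binding domain) fell by 4.16 ± 0.35, Rxrg (a retinoid X receptor) by 2.76 ± 0.18 and Ppargc1a (a coactivator) by 2.56 ± 0.36, whereas Med1 (a Mediator subunit) rose by 1.04 ± 0.17. In the combination at 24 h 2 were higher and 6 lower (median -0.23; 20.7% and 16% of all genes), and Nr0b2 fell by 1.36 ± 0.35. At 3 h the list held 8 lower and none higher after galactosamine (median -0.56) and 6 lower after the combination (-0.52). Of all genes 18% and 17.4% were lower in these comparisons. With nevirapine alone 2 were higher and 3 lower at 3 h, where 7.59% and 7.48% of all genes were, and 2 were lower at 24 h (6.63% of all genes). At 15 d Foxa2 (a pioneer factor of liver genes) rose by 1.02 ± 0.22, after a fall of 1.17 ± 0.22 at 24 h.

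Ces2c encodes a carboxylesterase that cleaves ester and amide drugs. Its fitted rise was the largest of the 9 genes in all 8 nevirapine and combination comparisons with vehicle except nevirapine at 3 h, where those of Gadd45b and Ugt2b1 were larger. In vehicle livers it ranged from 7.87 to 8.76. Nevirapine alone took it to 9.88, 8.83 and 9.07 at 3 h, to 10.76, 10.19 and 10.75 at 24 h, to 11.12, 12.07 and 11.71 at 48 h and to 11.40, 11.98 and 11.71 at 15 d. All of these rats exceeded every vehicle rat of the series. The rise was 1.04 ± 0.25 at 3 h (limma, adjusted p = 0.0041), 2.30 ± 0.25 at 24 h (3.9e-08), 3.01 ± 0.25 at 48 h (2.2e-10) and 3.31 ± 0.25 at 15 d (1.2e-11), the last a 9.89-fold rise. The call at 3 h was lost without rat31 (0.73, adjusted p = 0.059) and in the fit to its 2 groups alone (0.062). From 3 h to 24 h the nevirapine effect grew by 1.26 ± 0.36 (0.019), a call lost without rat1, rat32 or rat39 (0.056 to 0.085). Between 48 h and 15 d it differed by 0.30 ± 0.36 (95% interval -0.42 to 1.02), which was not called.

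In the combination Ces2c read 10.73, 11.08 and 11.17 at 3 h, 10.50, 10.89 and 10.69 at 24 h, 11.48, 11.74 and 10.98 at 48 h and 12.10, 12.35 and 11.59 at 8 d. It rose by 2.77, 2.43, 2.78 and 3.62 (each ± 0.25; limma, all adjusted p at or below 1.2e-09), and the last is 12.3-fold. After galactosamine alone the values were 8.98, 9.04 and 8.34 at 3 h and 7.86, 7.59 and 8.01 at 24 h. The latter lay below the vehicle rats of that time without overlap, but the difference of -0.44 ± 0.25 was not called (adjusted p = 0.13), except in the fit to the 2 groups alone (0.027) and against all 15 vehicle rats (0.0076). At 48 h the difference was 0.50 ± 0.28 (0.16). Ces2c at 3 h of galactosamine, at 0.57 ± 0.25 (0.081), was called with array weights (0.046) and without rat1 or rat18 (0.79 in each case, adjusted p 0.025 to 0.026).

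Ephx1, microsomal epoxide hydrolase, turns reactive epoxides into diols. It was not called at 3 h of nevirapine, at 10.80, 10.72 and 10.51 against 10.57, 10.33 and 10.46 in vehicle. By 24 h the nevirapine rats read 12.74, 12.39 and 12.69 against 10.23, 10.85 and 10.49, a rise of 2.08 ± 0.23 (limma, adjusted p = 3.9e-08), or 4.24-fold. The rises at 48 h and 15 d were 1.56 ± 0.23 (1.2e-05) and 1.15 ± 0.23 (4.7e-04). The effect at 24 h exceeded that at 3 h by 1.86 ± 0.32 (2.7e-04). At 24 h of galactosamine alone Ephx1 was the one gene of the 9 called higher, with 12.10, 11.37 and 12.28, a rise of 1.39 ± 0.23 (1.5e-06). At 48 h, with 11.97 and 12.15, it rose by 1.15 ± 0.25 (3.8e-04), and Akr7a3 was called higher there too. In the combination it rose by 1.66 ± 0.23 at 3 h, 2.25 ± 0.23 at 24 h, 1.65 ± 0.23 at 48 h and 1.59 ± 0.23 at 8 d (all adjusted p at or below 2.8e-06). The combination rats at 24 h read 12.94, 12.57 and 12.79, the highest group mean of Ephx1, and overlapped with nevirapine at 24 h.

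Ephx1 is also induced through NRF2, the sensor of electrophiles, and 10 of 11 listed NRF2 targets were measured. At 24 h of galactosamine 7 were higher and 1 lower (median 1.24), led by Srxn1 (sulfiredoxin), which rose by 5.46 ± 0.42, Osgin1 by 2.10 ± 0.43 and Txnrd1 (thioredoxin reductase) by 1.98 ± 0.19. Nevirapine at 24 h gave 7 higher and none lower (median 1.01): Me1 (malic enzyme) rose by 1.96 ± 0.29, Srxn1 by 1.73 ± 0.42 and Gclm, a subunit of the glutathione-making ligase, by 1.25 ± 0.21. The combination at 24 h gave 7 higher and none lower (median 0.75), with Srxn1 up by 3.64 ± 0.42. Over all genes 30.2% were higher and 28.5% lower at 24 h of galactosamine. These shares were 4.55% and 6.63% for nevirapine at 24 h, and 20.7% and 16% for the combination. At 15 d of nevirapine only Gclm of the NRF2 targets was called, at 0.92 ± 0.21. The part of these genes in the Ephx1 values was not tested.

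Ugt2b1 encodes a glucuronosyltransferase of steroids and drugs. It was among the first to rise: at 3 h of nevirapine the rats read 12.22, 12.56 and 12.23 against 11.56, 11.20 and 10.59, a rise of 1.22 ± 0.20 (limma, adjusted p = 7.0e-05). At 24 h the nevirapine rats read 12.93, 12.76 and 12.85, at 48 h 12.73, 12.78 and 12.76, and at 15 d 12.69, 12.96 and 12.82. The rises over vehicle were 1.74, 1.12 and 1.65 (each ± 0.20). In the combination the rises were 1.46, 1.32, 1.19 and 1.85 (each ± 0.20), and the 8 d rats, at 12.99, 13.08 and 12.99, formed the highest group of the series, above nevirapine at 15 d without overlap but with an uncalled difference of 0.20 ± 0.20.

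Galactosamine alone lowered Ugt2b1 at 24 h and 48 h, and at 48 h it was the one gene of the 9 called lower. The 24 h rats read 9.83, 10.15 and 8.97 against 10.66, 11.20 and 11.47, and at 48 h 10.32 and 10.05 against 11.53, 11.61 and 11.77. Ugt2b1 fell by 1.46 ± 0.20 at 24 h (limma, adjusted p = 7.2e-08) and by 1.45 ± 0.23 at 48 h (2.7e-06). These effects differed by 0.0086 ± 0.30 (95% interval -0.61 to 0.62). For Nr1i2, Nr1i3, Aldh1a1 and Por the effect moved upward from 24 h to 48 h by a called amount, and for Ces2c just so (limma, adjusted p = 0.048). At 8 d the difference was -0.14 ± 0.20, not called. The rats read 11.69, 11.22 and 11.38, overlapping with the vehicle rats at 11.39, 11.64 and 11.67.

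Aldh1a1, an aldehyde dehydrogenase that makes retinoic acid, had the widest span of the 9 genes, from 7.55 to 13.1 over the rats. It was not called at 3 h of nevirapine, where rat31 read 11.35 and the others 10.37 and 10.21, and rose at 24 h by 1.61 ± 0.29 (limma, adjusted p = 2.0e-04), at 48 h by 1.48 ± 0.29 (5.4e-04) and at 15 d by 1.21 ± 0.29 (0.0036). The last call was lost without vehicle rat15 (0.90, adjusted p = 0.058), which read 10.21 beside 11.13 and 11.19. The nevirapine effect at 24 h exceeded that at 3 h by 1.41 ± 0.41 (0.024), and this call was lost without rat1, rat2, rat32, rat33, rat37 or rat39 (0.051 to 0.078). At 24 h of galactosamine the rats read 8.50, 7.55 and 8.92, all below every other rat of the series, against 10.27, 10.25 and 10.37 in vehicle. Aldh1a1 fell there by 1.98 ± 0.29 (2.1e-07), or 3.94-fold. At 48 h of galactosamine both rats, at 11.20 and 11.88, lay above vehicle, with a difference of 0.63 ± 0.32 (0.12), and the change from 24 h to 48 h was 2.60 ± 0.44 (7.7e-06). The difference at 48 h was called in the fit to the 2 groups alone (0.039), with array weights (0.024) and against all 15 vehicle rats (0.011). In the combination Aldh1a1 rose at every time, by 1.83, 1.79, 1.81 and 1.54 (each ± 0.29; adjusted p 4.2e-06 to 1.6e-04).

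Akr7a3 encodes an aldo-keto reductase that detoxifies aflatoxin dialdehyde. At 3 h of nevirapine the rats read 6.87, 7.67 and 7.41, with rat31 the lowest of the series, against 7.97, 7.49 and 7.75, and the difference of -0.42 ± 0.30 was called only against all 15 vehicle rats (limma, adjusted p = 0.029). It then rose by 1.18 ± 0.30 at 24 h (0.0062) and by 1.80 ± 0.30 at 48 h (7.0e-05), and the effect at 24 h exceeded that at 3 h by 1.60 ± 0.42 (0.012). Without rat37 the call at 24 h was lost (1.01, adjusted p = 0.052). At 15 d the difference was 0.58 ± 0.30 (0.20), called with array weights (0.035) and against all 15 vehicle rats (0.025). It was smaller than at 48 h by 1.21 ± 0.42, which missed the threshold (0.069) and passed it without rat15 or rat40 (0.032 in each case), in the fit to those groups alone (0.028) and with array weights (2.9e-04).

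In the combination Akr7a3 rose by 1.19 ± 0.30 at 3 h (limma, adjusted p = 0.0021), 2.30 ± 0.30 at 24 h (6.1e-08), 1.39 ± 0.30 at 48 h (9.6e-04) and 0.91 ± 0.30 at 8 d (0.022). The 24 h rats read 10.77, 10.27 and 10.52 against 8.06, 8.63 and 7.96 in vehicle, a 4.94-fold rise. At 48 h rat72 read 8.51 while the others read 10.17 and 10.11, and in the fit to its 2 groups alone the call was lost (0.10). The call at 8 d was lost without rat15, rat73 or rat84 (0.071 to 0.17). After galactosamine alone the difference was 0.34 ± 0.30 at 24 h and not called, except with array weights (0.030). At 48 h Akr7a3 rose, with 8.97 and 9.51 against 8.07, 8.17 and 8.38, by 1.03 ± 0.33 (0.012). That call was lost without rat27 (0.77, adjusted p = 0.18) and with the GAPDH 3′ minus 5′ difference as a covariate (0.17). This difference ran from 0.13 to 0.14 in the galactosamine rats and from 0.48 to 0.74 in the vehicle rats at 48 h, and its part in the values was not tested.

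Por, NADPH-cytochrome P450 oxidoreductase, passes electrons to all microsomal P450s. At 3 h of nevirapine the rats read 10.62, 10.91 and 10.91 against 10.40, 9.92 and 9.67, a rise of 0.81 ± 0.21 (limma, adjusted p = 0.0061), lost without rat3 (0.65, adjusted p = 0.055). The rises at 24 h and 48 h were 0.65 ± 0.21 (0.032) and 0.69 ± 0.21 (0.017), and at 15 d the difference was 0.21 ± 0.21 (0.59). The call at 24 h was lost without rat5, rat6, rat37 or rat39 (0.052 to 0.21) and with array weights (0.061), and that at 48 h without rat12 or rat41 (0.058 to 0.11). By its other probe set, Por differed by 0.66 at 24 h (0.12) and by 0.36 at 48 h (0.38), uncalled at both, and it was called at 3 h. In the combination Por was not called at 3 h or 24 h (0.09 and 0.07, each ± 0.21), although at 24 h it was against all 15 vehicle rats (0.52, adjusted p = 0.017). It rose at 48 h by 0.94 ± 0.21 (0.0013) and at 8 d by 0.76 ± 0.21 (0.0059). The latter call was lost without rat15 (0.49, adjusted p = 0.11), and both differences were also called with the other probe set. Galactosamine at 24 h gave 9.20, 8.54 and 9.30, below vehicle at 10.81, 10.24 and 10.65. Por fell by 1.55 ± 0.21 (2.8e-08), and by 1.45 with the other probe set, also called, and at 48 h the difference was 0.15 ± 0.23.

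Of the list of Por's partners in electron transfer and heme turnover 6 of 7 genes were measured, and at 24 h of galactosamine 1 was higher and 4 lower (median -0.91), where 28.5% of all genes were lower. Cyb5b, an outer mitochondrial cytochrome b5, fell by 2.22 ± 0.15, Cyb5r3 (cytochrome b5 reductase) by 1.76 ± 0.14 and Cyb5a (the microsomal cytochrome b5) by 1.37 ± 0.10, while Hmox1 (heme oxygenase) rose by 1.68 ± 0.25. Nevirapine at 24 h gave 3 higher, namely Cyb5r3 by 0.69 ± 0.14, Pgrmc1 (a heme-binding partner of P450s) by 0.65 ± 0.11 and Cyb5a by 0.42 ± 0.10, and none lower. Over all genes 4.55% were higher and 6.63% lower.

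Gadd45b is a stress-inducible gene whose product binds MAP kinase kinases, and CAR activators induce it in rodent liver. Its nevirapine values were highest at the first time: 10.54, 10.48 and 10.66 at 3 h against 7.79, 8.48 and 9.09, a rise of 2.11 ± 0.40 (limma, adjusted p = 3.9e-04), or 4.31-fold. It then read 10.46, 10.34 and 10.38 at 24 h, 9.65, 10.15 and 9.79 at 48 h and 9.28, 9.61 and 9.29 at 15 d, with rises of 1.36 ± 0.40 (0.022), 1.20 ± 0.40 (0.035) and 1.16 ± 0.40 (0.048). Vehicle rats at 24 h read 8.29, 9.25 and 9.57, the highest vehicle mean of Gadd45b. The 24 h effect differed from that at 3 h by -0.75 ± 0.57 (0.44), uncalled, as was the difference between 15 d and 48 h. The later calls were fragile. The one at 24 h was lost without rat4, rat37, rat38 or rat39 (0.055 to 0.19), and those at 48 h and 15 d without any single rat of their groups (0.050 to 0.12 and 0.066 to 0.19). Cyclic loess (0.063) or the GAPDH covariate (0.077) also took away the call at 48 h, and the GAPDH covariate (0.050) or a prior with trend (0.063) that at 15 d.

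After the combination Gadd45b at 3 h read 9.04, 8.35 and 10.78. Rat63, the array least like its group, was the high one, and the difference of 0.94 ± 0.40 (limma, adjusted p = 0.072) was called without rat3 or rat62 (0.0099 to 0.031). At 24 h the difference was 0.09 ± 0.40. The gene rose at 48 h by 1.17 ± 0.40 (0.042), a call lost without any single rat of its 2 groups (0.055 to 0.13) and in 3 other settings (0.055 to 0.10), and at 8 d by 1.55 ± 0.40 (0.0042), with 9.60, 10.12 and 9.65 against 7.87, 8.51 and 8.32. After galactosamine the differences from vehicle were -0.37 at 3 h, -0.84 at 24 h (0.072), -0.65 at 48 h and 0.35 at 8 d, none called. The 24 h difference passed the threshold without rat4 or rat24 (0.0071 to 0.019) and with array weights (4.2e-04). Of 12 immediate early and NF-kB feedback genes, all measured, 4 rose at 3 h of nevirapine and none fell (median 0.61): Fos by 3.41 ± 0.98, Atf3 by 3.29 ± 0.62, Jun by 2.34 ± 0.40 and Egr1 by 2.22 ± 0.54. By 24 h of nevirapine none was higher, and Fos fell by 3.94 ± 0.98 and Jun by 1.38 ± 0.40 against vehicle. In these vehicle rats the mean of the 12 genes ran from 7.87 to 8.92, against 7.65 to 7.93 in the nevirapine rats. Vehicle rats of other times had means of 7.26 to 8.48 at 3 h and 7.68 to 7.85 at 48 h. At 8 d and 15 d the vehicle means were 7.03 to 7.22 and 7.60 to 7.79. Galactosamine at 24 h gave 8 higher and 2 lower (median 1.17), with Atf3 up by 5.85 ± 0.62. Over all genes 7.59% were higher and 7.48% lower at 3 h of nevirapine, and 4.55% and 6.63% at 24 h. For galactosamine at 24 h these shares were 30.2% and 28.5%. Whether the immediate early and NF-kB feedback genes have a part in the Gadd45b values was not tested. At 3 h the nevirapine rats were nearer to their oral dose and sham injection than the vehicle rats. The part of this in the 3 h rises was not tested.

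**Figure D3:**
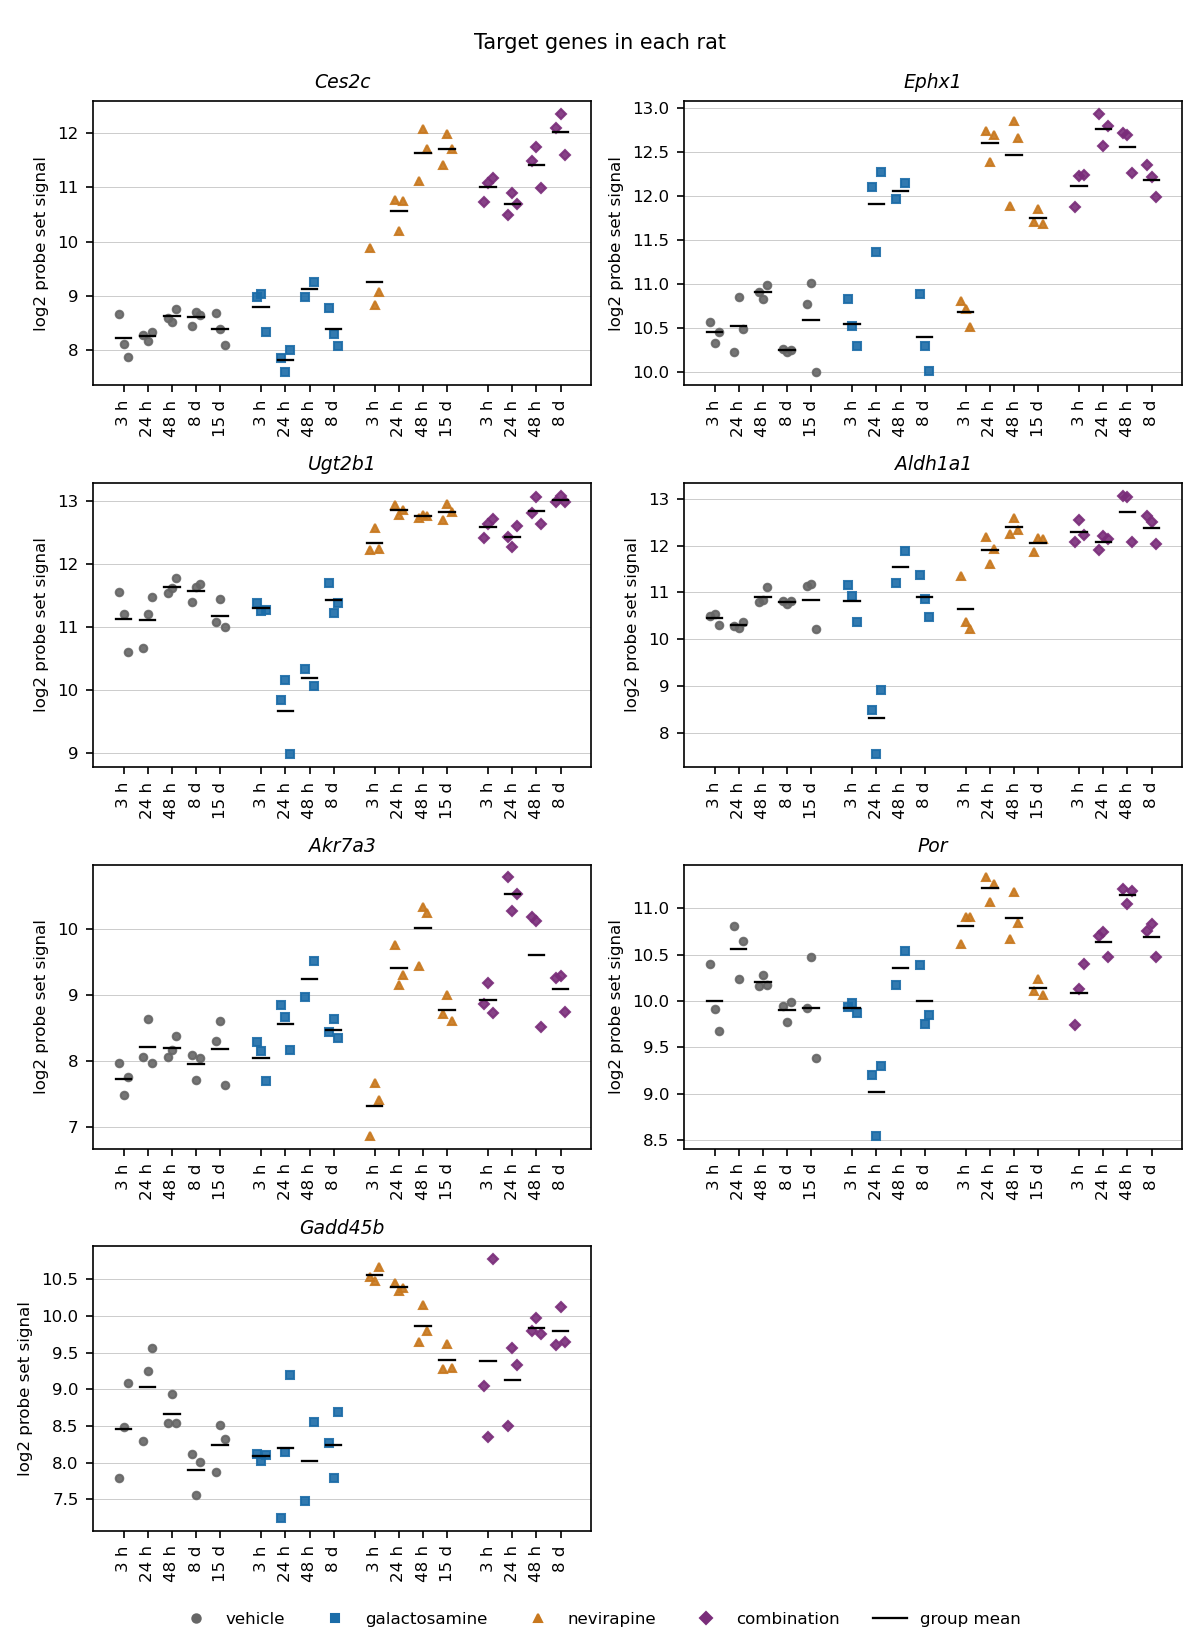
Log2 signal of the 7 target genes in every rat, 1 panel a gene, with a bar at the mean of each group and times on the horizontal axis. Ces2c under nevirapine and the combination lies above all vehicle rats at every time, Aldh1a1 at 24 h of galactosamine (7.55 to 8.92) lies below all other rats, and Gadd45b is highest at 3 h of nevirapine apart from rat63 of the combination.

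Of the other targets of CAR and PXR that are not P450s, 7 of 13 were measured. Nevirapine raised 3 at 3 h, 6 at 24 h (median 1.42), 4 at 48 h (0.95) and 5 at 15 d (0.58), and lowered none. At 24 h Abcc3, an exporter of conjugates, rose by 2.04 ± 0.27, Slco1a4, an uptake carrier, by 1.59 ± 0.24, Alas1, the first enzyme of heme synthesis, by 1.51 ± 0.23 and Gstm1, a glutathione transferase, by 1.42 ± 0.20. At 3 h Abcb1a, a drug efflux pump, rose by 1.53 ± 0.18 and Alas1 by 1.34 ± 0.23. After the combination at 8 d 4 were higher (median 0.71), and Abcc3 rose by 2.15 ± 0.27. Galactosamine at 24 h gave 3 higher and 1 lower (median 0.29): Slco1a4 fell by 1.89 ± 0.24 and Gstm1 rose by 1.77 ± 0.20. Of all genes nevirapine raised 7.59%, 4.55%, 11% and 5.13% from 3 h to 15 d, and the combination at 8 d 13.1%. Galactosamine at 24 h raised 30.2% and lowered 28.5% of them.

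Of the P450 targets, 7 of 10 were measured. The Cyp2b1 and Cyp2b2 genes and Cyp3a62 were not analysed here. Galactosamine lowered all 7 at 24 h (median -0.95), among them Cyp3a18 by 2.45 ± 0.35 and Cyp3a9 by 1.84 ± 0.30, and 6 of 7 at 48 h (-0.71). It lowered 28.5% and 14.5% of all genes at these times. Nevirapine raised 1 at 3 h, 1 at 24 h, 3 at 48 h and 3 at 15 d, led by Cyp3a2 at 3.53 ± 0.75 at 48 h and 3.58 ± 0.75 at 15 d. Of all genes it raised 7.59%, 4.55%, 11% and 5.13%. The combination at 8 d raised 4 of the 7 (median 0.42) and 13.1% of all genes, with Cyp3a2 up by 6.08 ± 0.75. These enzymes belong to multigene families, and probes can share signal between near-identical members. The same holds for Ces2c and Ugt2b1.

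Among 15 measured relatives of the 9 genes, of 20 listed, nevirapine at 24 h raised 3 and lowered 3 (median 0.04), and galactosamine at 24 h raised 1 and lowered 7 (-0.55). Of all genes nevirapine raised 4.55% and lowered 6.63%, and galactosamine raised 30.2% and lowered 28.5%. Ephx2 (soluble epoxide hydrolase) fell by 3.43 ± 0.15 there, when Ephx1 rose, and Ugt2b10 fell by 2.93 ± 0.22. Akr7a2 fell by 2.79 ± 0.15, and Nr1h4 (the bile acid receptor FXR) by 2.25 ± 0.20. With nevirapine at 24 h Gadd45g fell by 2.18 ± 0.46 and Ephx2 by 0.79 ± 0.15, while Ugt2b10 rose by 0.73 ± 0.22 and Ugt2b35 by 0.63 ± 0.13.

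Cell markers changed at 24 h both after galactosamine and after the combination. Over all genes 30.2% were higher and 28.5% lower after galactosamine, and 20.7% and 16% after the combination. At 24 h of galactosamine 2 of 12 hepatocyte markers were higher and 5 lower (median -0.15). Their summed signal ran from 16.59 to 16.61 on the log2 scale, against 16.74 to 16.80 in vehicle and 16.56 to 16.67 in the combination. Of 7 measured pericentral markers, genes of hepatocytes next to the central vein, where CAR targets are known to be most inducible, 1 was higher and 6 lower (median -1.01), with a summed signal of 13.26 to 13.69 against 14.28 to 14.33 in vehicle and 13.92 to 14.10 in the combination. Of 6 periportal markers 1 was higher and 5 lower after galactosamine (-1.70) and 5 were lower after the combination (-2.03). The 11 measured macrophage markers held 4 higher and 1 lower after galactosamine, with a summed signal of 12.30 to 12.54 against 11.36 to 11.55 in vehicle, and 9 higher and none lower after the combination, at 12.49 to 12.83. Their part in the falls of Nr1i2, Nr1i3, Ugt2b1, Aldh1a1 and Por was not tested.

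The combination was also set against galactosamine at the same time. This difference holds the rise that nevirapine gives by itself, so it does not test whether nevirapine changed what galactosamine did. At 3 h 6 of the 9 genes were higher and Nr1i2 lower (10.6% of all genes higher and 7.06% lower). At 24 h 7 were higher and none lower (16.2% and 21.6%), and at 48 h 5 were higher and none lower (12.1% and 17.1%). Without rat63, 4 and not 7 were called at 3 h, and without galactosamine rat26, 2 and not 5 at 48 h. The median of the 9 genes was 1.28, 1.96 and 0.79, against -0.027, 0.035 and 0.013 over all genes.

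At 24 h Aldh1a1 had the largest difference, 3.76 ± 0.29 (limma, adjusted p = 4.2e-13), with 11.91, 12.21 and 12.13 in the combination against 8.50, 7.55 and 8.92, or 13.6-fold. Ces2c was higher by 2.87 ± 0.25 (9.7e-12), Ugt2b1 by 2.78 ± 0.20 (1.4e-13), Nr1i3 by 2.77 ± 0.31 (4.0e-09), Akr7a3 by 1.96 ± 0.30 (1.2e-06), Por by 1.62 ± 0.21 (4.2e-08) and Ephx1 by 0.85 ± 0.23 (0.0026). None of these 7 overlapped between the groups, and the share of all genes without overlap was not counted. The Ephx1 call was lost without rat23 (0.58, adjusted p = 0.054). Gadd45b, at 0.93 ± 0.40, missed the threshold (0.066) and passed it without rat24 or rat67 (0.0072 to 0.028). Of the 6 genes called at 24 h of galactosamine against vehicle, Nr1i2 was the one for which the combination did not differ from galactosamine by a called amount. At this time 5 of 7 measured P450 targets were higher and none lower (median 1.04). Also higher were 10 of 15 relatives (0.55) and 4 of 6 genes of electron transfer and heme turnover (0.82). Over all genes 16.2% were higher and 21.6% lower, with a median of 0.035. Of the partners, Nr0b2 was higher by 2.80 ± 0.35, and Foxa2 fell by 0.94 ± 0.22 relative to galactosamine.

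At 3 h the combination exceeded galactosamine by 2.21 ± 0.25 for Ces2c, 1.57 ± 0.23 for Ephx1, 1.46 ± 0.29 for Aldh1a1 and 1.28 ± 0.20 for Ugt2b1 (limma, adjusted p 4.8e-08 to 3.9e-04). Gadd45b was higher by 1.31 ± 0.40 (0.021), which fell to 0.61 (0.33) without rat63, and this call was also lost without rat17 or rat18 (0.053 to 0.059), with array weights (0.17) and in the fit to the 2 groups (0.19). Akr7a3 was higher by 0.87 ± 0.30 (0.036), lost without rat17, rat18, rat61, rat62 or rat63 (0.052 to 0.17). Nr1i2 was lower by 0.80 ± 0.23 (0.014), lost without rat63 (0.050). At 48 h the differences were 2.64 ± 0.23 for Ugt2b1 (1.4e-11) and 2.28 ± 0.28 for Ces2c (4.5e-08). Gadd45b (1.82 ± 0.45, 0.0021), Aldh1a1 (1.18 ± 0.32, 0.0053) and Por (0.79 ± 0.23, 0.0085) were also higher, and these 3 calls were lost without rat26 (1.28, 0.84 and 0.60, adjusted p 0.11 to 0.15), which leaves 1 rat in the galactosamine group, taken to vary like the other groups. In the fit to the 2 groups alone the Aldh1a1 call was lost (0.075). Akr7a3, at 0.36 ± 0.33 (0.44), was called without rat72 (0.90, adjusted p = 0.022).

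**Figure D4:**
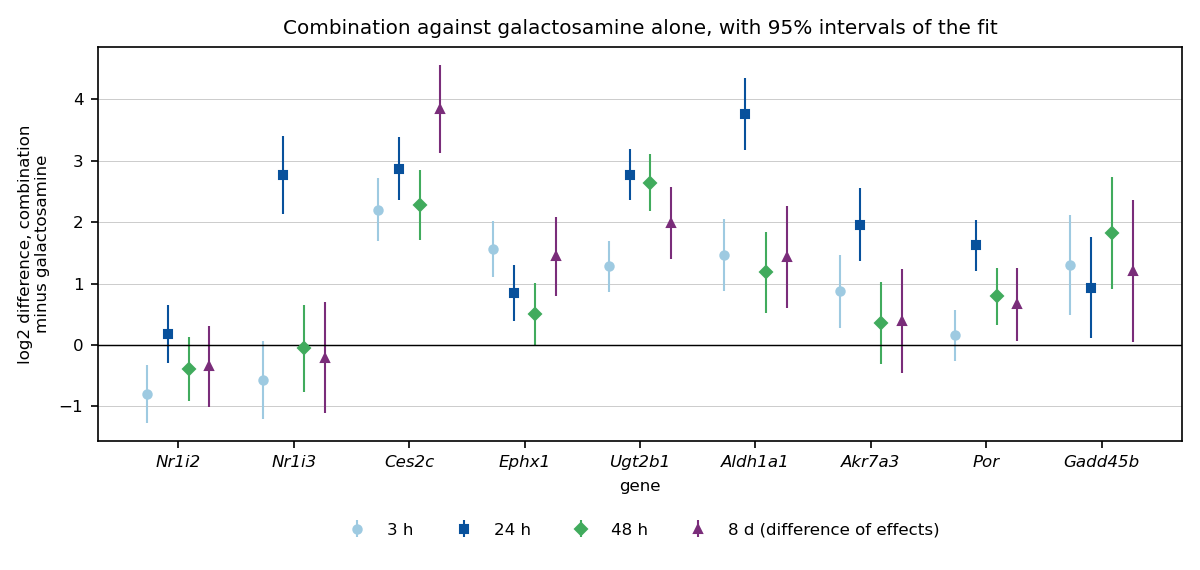
Log2 difference of the combination from galactosamine alone for each of the 9 genes at 3 h, 24 h and 48 h, and at 8 d the difference between both effects, each against its own vehicle rats, with 95% intervals. Nr1i3 departs from 0 at 24 h (2.77) and not at the other times, and Ces2c lies between 2.21 and 3.84 throughout.

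At 8 d the combination and galactosamine had vehicle groups of different times, so the effects were compared. The effect of the combination was larger for Ces2c by 3.84 ± 0.36 (limma, adjusted p = 4.7e-09), for Ugt2b1 by 1.99 ± 0.29 (2.5e-05), for Ephx1 by 1.44 ± 0.32 (0.0032) and for Aldh1a1 by 1.43 ± 0.41 (0.019), while 5.87% of all genes were called higher and 5.34% lower. The call for Aldh1a1 was lost without rat15 or rat104 (0.074 to 0.089). For Por (0.66 ± 0.29) and Gadd45b (1.20 ± 0.57) it missed the threshold (0.13 and 0.17), but the direct comparison of the treated groups called both (0.021 and 0.0079), and array weights did too (0.042 and 0.024).

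What galactosamine added after 15 d of nevirapine was asked by setting the combination at 8 d against nevirapine at 15 d, with the same 16 oral doses. By limma none of the 9 genes was called, 1 (Por) had an unadjusted p under 0.05, and 9.31% of all genes were called higher and 3.09% lower. The differences ran from 0.20 for Ugt2b1 to 0.55 for Por, all above 0, and their median was 0.33 against 0.022 for all genes. For Ces2c it was 0.32 ± 0.25 (95% interval -0.19 to 0.82) and for Nr1i3 0.54 ± 0.31 (-0.10 to 1.17). The fit to the 2 groups alone called 3 of the 9: Nr1i3 (0.021), Ephx1 (0.032) and Por (0.015). Departure from additivity, the combination effect less the sum of the effects of both drugs, was called for none of the 9 genes, also by unadjusted p, against 2.05% higher and 0.774% lower over all genes. It ran from -0.20 ± 0.42 for Akr7a3 to 0.54 ± 0.36 for Ces2c. In the same livers 7 of 10 stellate cell and myofibroblast markers were higher than at 15 d of nevirapine (median 1.70) and all 6 cell cycle genes were (1.96). The summed stellate signal was 12.51 to 12.96, against 10.92 to 11.10 in nevirapine and 10.70 to 11.22 in vehicle, while hepatocyte markers summed to 16.65 to 16.71, 16.62 to 16.65 and 16.69 to 16.70.

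Over time, the nevirapine effect at 24 h exceeded that at 3 h for 4 of the 9 genes (Ces2c, Ephx1, Aldh1a1 and Akr7a3) and was smaller for none, against 3.64% higher and 5.4% lower over all genes. Without rat1, rat39 or rat32, 2 and not 4 were called. Ugt2b1, Por and Gadd45b had risen by 3 h, and their later effects differed by 0.52 ± 0.29, -0.16 ± 0.29 and -0.75 ± 0.57, uncalled. Between 48 h and 15 d none was called (limma; 1 at an unadjusted p under 0.05; 1.91% higher and 5.25% lower over all genes). The galactosamine effect changed from 24 h to 48 h for 5 genes, all upward: Aldh1a1, Nr1i3, Por (1.70 ± 0.31), Nr1i2 and Ces2c (0.94 ± 0.38, adjusted p = 0.048), against 19.3% higher and 17.2% lower over all genes. This comparison was added after the values had been seen. The Ces2c call was lost without any 1 of 9 rats (0.056 to 0.18), with cyclic loess (0.078) and with the GAPDH covariate (0.13). Nevirapine alone at 24 h and the combination at 24 h differ in the days of dosing, so their values stand side by side without a test: Por differed from vehicle by 0.65 and 0.07, Gadd45b by 1.36 and 0.09, and Akr7a3 by 1.18 and 2.30.

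The vehicle groups themselves differed between times for 29.6% of all genes (limma moderated F) and for 1 of the 9, Por (adjusted p = 0.048), which ranged from 9.38 to 10.81 over vehicle rats. The call for Por was lost without any 1 of 12 of the 15 rats (0.050 to 0.23). When 1 vehicle rat was left out, Ugt2b1 was called without rat1, rat6 or rat14 (0.021 to 0.047) and Nr1i3 without rat1 or rat6 (0.034 to 0.048). In the fit to the vehicle rats alone Nr1i2 (8.0e-04), Nr1i3 (0.045) and Aldh1a1 (0.042) were called and Por was not (0.094).

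Ordered by group means, most neighbouring groups overlapped: 14 of 16 neighbours for Nr1i2, Ephx1, Aldh1a1 and Gadd45b, 15 for Nr1i3, Ces2c and Por, all 16 for Akr7a3 and 12 for Ugt2b1. For Nr1i2 the order ran from vehicle at 24 h (mean 9.27 ± 0.13 SD, n = 3) to galactosamine at 24 h (7.62 ± 0.82), and the 7 lowest groups all had nevirapine, the combination or galactosamine at 24 h. For Nr1i3 it ran from galactosamine at 8 d (8.56 ± 0.45) through vehicle to the combination at 3 h (7.44 ± 0.37), and then with a gap to galactosamine at 24 h (5.11 ± 0.71). For Ces2c the 7 highest groups were nevirapine from 24 h on and the combination at all 4 times, from 12.01 ± 0.39 (combination at 8 d) to 10.57 ± 0.32 (nevirapine at 24 h), with a gap above nevirapine at 3 h (9.26 ± 0.55). Ugt2b1 had 3 clear steps, with nevirapine and the combination on top, vehicle and galactosamine at 3 h and 8 d below, and galactosamine at 48 h (10.19 ± 0.19) and 24 h (9.65 ± 0.61) last. Ephx1 had galactosamine at 24 h and 48 h in the upper step, beside nevirapine from 24 h on and the combination. Aldh1a1 had galactosamine at 48 h there, and Gadd45b ran from nevirapine at 3 h (10.56 ± 0.09) to vehicle at 8 d (7.89 ± 0.30). Akr7a3 ran from the combination at 24 h (10.52 ± 0.25) to nevirapine at 3 h (7.32 ± 0.41) with no gap between neighbours. Por ran from nevirapine at 24 h (11.22 ± 0.14) to galactosamine at 24 h (9.02 ± 0.41), which alone lay apart. Spread within groups, pooled over all 17, was smallest for Ugt2b1 (SD 0.26) and largest for Gadd45b (0.53).

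Across the 17 group means, Pearson correlations among the targets ran from 0.31 (Akr7a3 with Gadd45b) to 0.89, and those of a receptor with a target from -0.68 to 0.52. They were 0.87 between Ces2c and Aldh1a1, 0.85 between Ces2c and Ugt2b1, 0.89 between Ephx1 and Akr7a3 and 0.78 between Por and Gadd45b. Nr1i2 correlated with Nr1i3 at 0.57, with Ephx1 at -0.68 and with Ces2c at -0.52, and Nr1i3 with Ces2c at 0.10. These points share arrays and doses and are a description only. The 3 genes whose group means were most like each of the 9, by Pearson correlation over the 17 groups, were Asgr2 (0.91), Serpind1 (0.91) and Chd3 (0.90) for Nr1i2, and Mink1 (0.91), Avpr1a (0.91) and Cth (0.90) for Nr1i3. Spearman correlations of Nr1i3 with its 3 were lower, at 0.71, 0.45 and 0.38, where the group far below the others counts only by its rank. The most like were Mnd1 (0.96), Grk5 (0.95) and Sult1e1 (0.94) for Ces2c, and Gstm1 (0.96), Abcc3 (0.93) and Txn1 (0.91) for Ephx1. For Ugt2b1 they were Cyp3a23-3a1 (0.96), Cyp2c6v1 (0.94) and Mal2 (0.94), for Aldh1a1 Rarres1 (0.95), Gsta4 (0.92) and Igsf11 (0.90), and for Akr7a3 Kxd1 (0.94), Entpd5 (0.91) and Pomp (0.91). Por was most like Ptdss2 (0.88), Lenep (0.83) and Slc43a1 (0.82), and Gadd45b most like Rnf139 (0.88), Ptp4a1 (0.86) and Alas1 (0.86).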

How the data were processed

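RNA from 50 rat livers, 6 ug each, was measured on Affymetrix rat arrays, and the authors deposited log2 probe set signals. Per the submitters' processing notes the tools were RMA and limma, with no version given. Nothing was rescaled or filtered before the main fit. No batch could be examined, since no date or batch is given in the sources used here, and rats are taken as independent animals from their labels. Of 31099 probe sets, 20826 had 1 symbol, 436 several and 9831 no entry, and the probe set with the highest mean stood for each of 14217 genes.

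The 9 genes and the gene lists (178 genes, 151 measured) were chosen with earlier results of these data known. Lists are given by counts and medians, without a test of their own, and up to 4 called genes with the largest changes are named from each. Group means of all 17 groups were fitted with limma 3.58.1 (R 4.3.3), and 21 comparisons and a moderated F over the vehicle times were drawn from it, with Benjamini-Hochberg adjustment over all genes. The scripts were tested on simulated data. Alternatives were a fit to only the compared groups, a trended robust prior, a filter on the dimmest 40% of genes, probe sets averaged by gene or the other one of Por, cyclic loess, array weights, the GAPDH difference as a covariate, a control pooled from all 15 vehicle rats, vehicle at 8 d for the combination at 8 d, a direct comparison of the treated groups at 8 d, rat63, rat70 and rat31 left out, and each rat left out in turn. Tables and plots used pandas 2.3.3, Numpy 2.4.6 and matplotlib 3.10.9 under Python 3.11.15.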

Additional observations from a re-analysis of the deposited data

Results flagged for a closer look

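Several effects differed between times or treatments by a test of the difference itself (limma, adjusted over all genes). The effect of the combination at 8 d exceeded that of galactosamine at 8 d by 3.84 for Ces2c (adjusted p = 4.7e-09), 1.99 for Ugt2b1 (2.5e-05), 1.44 for Ephx1 (0.0032) and 1.43 for Aldh1a1 (0.019). The nevirapine effect was larger at 24 h than at 3 h by 1.86 for Ephx1 (2.7e-04), 1.60 for Akr7a3 (0.012), 1.41 for Aldh1a1 (0.024) and 1.26 for Ces2c (0.019). The galactosamine effect was higher at 48 h, with 2 rats, than at 24 h by 2.60 for Aldh1a1 (7.7e-06), 2.27 for Nr1i3 (1.7e-04), 1.70 for Por (2.8e-05), 1.33 for Nr1i2 (0.0023) and 0.94 for Ces2c (0.048). No group of 4 or more rats exists, so single rats were not tested as outliers.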

How the results depend on the processing

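No difference of a single gene changed direction while called. Of 1659 values of single genes under other settings, 1589 kept their side of the threshold, 25 lost their call and 45 gained one, and of 1377 values with 1 rat left out, 1278 kept it, 85 lost it and 14 gained it. Leaving out a rat leaves smaller groups, and array weights and fits to the compared groups change the spread used; other causes of these changes were not tested. No paired analysis was possible because rat numbers are unique and no rat or number is shared between groups.

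The number of the 9 genes called moved by more than 1.5 times as follows. Array weights gave 1 and not 0 at 3 h of galactosamine. Fitting only the compared groups, array weights and pooled vehicle rats each gave 5 and not 3 at 48 h of galactosamine. For the combination at 8 d against nevirapine at 15 d, 3 were called by the fit to those groups, 1 by the mean of probe sets and 1 with array weights, and not 0. For the nevirapine effect at 15 d against 48 h the counts were 2 with only those groups, 3 with array weights and 1 without rat63, rat70 and rat31, and not 0. For vehicle times they were 3 with only those groups, 0 with the mean of probe sets and 5 with array weights, and not 1. With each rat left out in turn, counts ranged from 0 to 1 at 3 h of galactosamine, 4 to 6 at 24 h, 5 to 7 at 48 h and 3 to 5 at 15 d of nevirapine, 4 to 7 for the combination against galactosamine at 3 h and 2 to 6 at 48 h, 2 to 4 for the nevirapine effect at 24 h against 3 h, 0 to 1 at 15 d against 48 h, and 0 to 3 for vehicle times. The small groups, of 2 or 3 rats, and the low signal of Nr1i3 in rat23 limit what these calls can show.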
